A study of Mus musculus with 17 samples.

Results

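Memory CD8 T cells formed after a Listeria infection were compared with naive CD8 T cells over all probes of an Illumina mouse bead array. The 8 arrays were chosen by their sample titles, 3 of memory and 5 of naive cells, out of 17 arrays in the series. Both groups were OT-I cells, which carry a transgenic T-cell receptor for a peptide of ovalbumin (OVA), from mice on a C57Bl/6 background aged 2 to 6 months, isolated from the spleen. Memory cells (arrays memory 3, 5 and 9) were taken 3 months after mice had been infected with Listeria monocytogenes OVA, and naive cells (naive 1, 2, 11, 12 and 13) without an infection named in their labels. The other 9 arrays, which helped to estimate the spread of each gene, held Teff (n = 5, mostly from coculture with splenic dendritic cells) and Tpm (n = 4, from coculture with liver sinusoidal endothelial cells), and only Teff is compared, in the last paragraph. Each array holds 1 sample, and nothing in the labels says that the samples of a group came from separate mice, so each p-value speaks of the spread among samples, which may be technical.

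A naive CD8 T cell circulates through lymph nodes, drawn there by the receptor CCR7, and keeps most effector genes low. After an infection a fraction of the expanded clone stays as memory cells, which keep genes for killing and for rapid interferon production open, carry receptors first described on natural killer (NK) cells, and patrol blood, spleen and peripheral tissue. The transcription factors T-bet, Eomes, Zeb2, Id2, Lef1 and Tcf1 are known for setting how far a CD8 T cell moves from the naive toward the effector-like state.

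Values are log2 of background-corrected and quantile-normalized intensities. A difference is the memory mean minus the naive mean on that scale, given with its SE from limma, and a gene was called where the Benjamini-Hochberg adjusted p was under 0.05 and the difference at least 1, which is 2-fold. Of 10612 genes tested, 592 were higher in memory cells (5.58% of the genes tested) and 735 were lower (6.93%). The median difference over all genes was -0.05. Genes called higher made up 44.6% of the calls, a split that rests on how the arrays are scaled: it was 2.25% with every array scaled to the same median signal, which moved the median gene to -0.80, and 92.0% with scaling to the median of the probes above background on all arrays, which moved it to 0.70. All directions given are therefore relative to quantile-normalized arrays. Of the 127 genes named by rule, 26 lost their call with arrays scaled to the same median and 15 turned in sign.

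Arrays memory 3 and memory 5 were dim. Their mean deposited signals were 140 and 96.7, against 266 on memory 9 and 235 to 402 on the naive arrays. Genes above background numbered 7708 on memory 3 and 5464 on memory 5, against 8336 on memory 9 and 7815 to 8700 on the naive arrays. The lowest signal above background lay at 6.39 after normalization on memory 5 and between 4.69 and 4.99 on the other 7 arrays. A gene of modest level therefore reads as background on memory 5. Faint signals could also read higher there than on the other arrays. Fcrla read 7.90 on memory 5 from a deposited signal of 95.5, and 5.66 on memory 3 from one of 94.0. Across genes, memory 3, 5 and 9 correlated with the mean of the other memory arrays at 0.96, 0.93 and 0.95, each above its correlation with the naive mean (0.94, 0.88 and 0.93). Naive 13 also stood apart in sex-linked genes: on 1 probe of each, Xist, the RNA of the inactive X chromosome, lay at 4.37 there and at 10.67 to 11.89 on the other 7 arrays, while the Y-linked Eif2s3y lay at 11.12 there and at 4.93 or lower on the others.

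The dim arrays bore on the calls in both directions, and fewer of the genes called lower were above background on memory 5. Of the 592 genes called higher, 574 were above background on memory 3 and 552 on memory 5. Without memory 3, 536 of them were still called, without memory 5 452, and without both, with memory 9 alone and a spread pooled over the groups, 386 (65.2%). Memory 9 lay above all 5 naive arrays for 556 of the 592 (93.9%), where it did so for 28.5% of all genes. Of the 735 genes called lower, 592 were above background on memory 3 but only 228 on memory 5. Without memory 3, 653 were still called, without memory 5 472, and without both 372 (50.6%). Memory 9 lay below all 5 naive arrays for 675 of the 735 (91.8%), against 25.7% of all genes. Without both dim arrays the sign stayed for 581 of the genes called higher and 730 of those called lower. Memory 9 entered the means behind these calls. Its position beside the naive arrays and the kept signs are therefore not independent of the calls. Sizes among the called genes were largest on memory 5. The median difference over the genes called higher was 1.30 on memory 3, 1.82 on memory 5 and 1.50 on memory 9. Over the genes called lower it was -1.30, -2.03 and -1.25 on the same arrays. The values of memory 5 entered the calls, and the cause of its larger sizes was not tested.

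**Figure D1:**
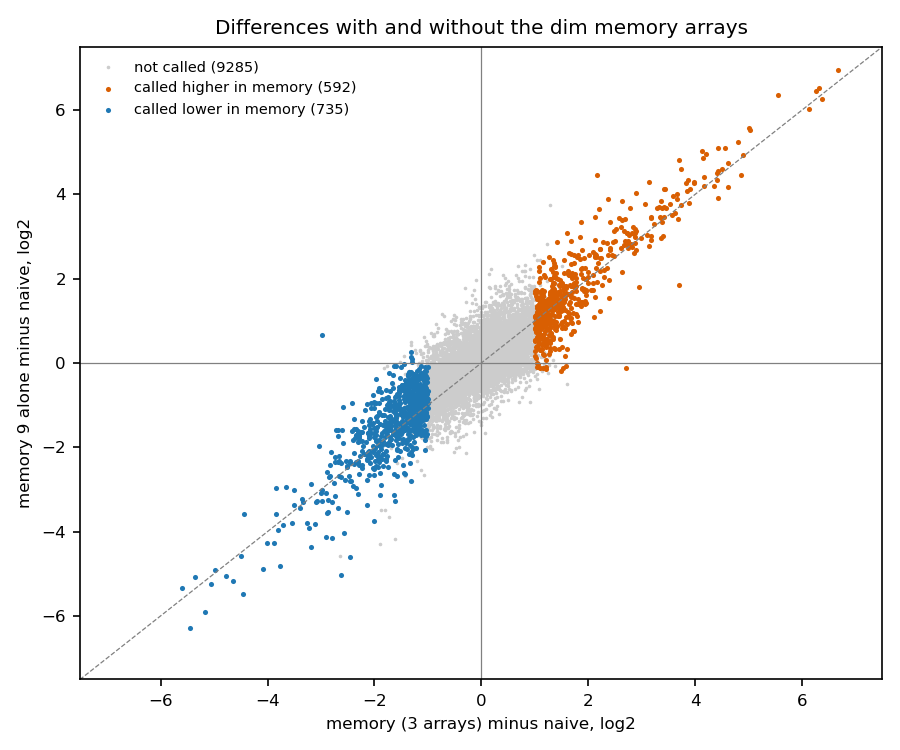
Difference between memory and naive cells for each of 10612 genes (points), with all 3 memory arrays (x axis, log2) and with memory 9 alone (y axis, log2). Grey points were not called, orange points were called higher (592) and blue points lower (735) with all 3 arrays, and the dashed line marks equal values. The genes with the largest differences lie near the dashed line, and 2 points far off it are Cd163l1, at -2.98 and 0.68, and Igfbp7, at 2.72 and -0.11.

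Homing receptors of blood and tissue were among the genes that rose most. Of 13 tested chemokine receptor and homing genes, 4 were called higher and 3 lower, and 4 and 2 of these were still called without both dim arrays. S1pr5, a receptor for sphingosine-1-phosphate that lets lymphocytes leave tissue, read 4.83, 4.43, 4.30, 4.25 and 4.27 on naive 1, 2, 11, 12 and 13 and 10.47, 11.57 and 11.25 on memory 3, 5 and 9. The groups lay far apart, memory 3 was the lowest memory array, and the difference was 6.68 ± 0.21 (adjusted p = 6.46e-13), against naive values that were above background on 1 array only. Without both dim arrays it was 6.96. Cx3cr1, the fractalkine receptor of blood-borne effector-type cells, also above background on 1 naive array only, read 4.62, 4.38, 4.20, 4.98 and 4.37 on the naive arrays in the same order and 10.51, 11.02 and 10.41 on the memory arrays. The memory values lay within 0.61 of each other and every one above the naive values, with a difference of 6.13 ± 0.19 (adjusted p = 6.46e-13) and 6.02 without both dim arrays.

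Cxcr3 and Cxcr6 were also higher. Cxcr3, which draws T cells to interferon-induced chemokines, read 6.66, 6.45, 6.58, 6.19 and 6.77 on the naive and 10.65, 9.67 and 10.85 on the memory arrays. Memory 5 was the lowest of the memory arrays here, and the difference was 3.86 ± 0.29 (adjusted p = 3.03e-08), 4.35 without both dim arrays. Cxcr6, a receptor of T cells in liver and other tissue, was higher by 3.70 ± 0.58 (adjusted p = 0.000177), from 6.47 to 10.17 on average, and by 4.81 without the dim arrays, but was not called with arrays scaled to the same median (2.05). Ccr7, the lymph node homing receptor, went the other way. It read 11.26, 10.52, 10.92, 10.12 and 9.91 on the naive arrays and 7.38, 4.78 and 6.02 on the memory arrays, of which memory 5 was not above background. The nearest memory and naive values were 2.53 apart, the difference was -4.49 ± 0.44 (adjusted p = 9.29e-07), and memory 9 alone gave -4.57. In deposited signals, before any processing, Ccr7 stood at 1283 to 2147 on the naive arrays and at 125, 84.5 and 140 on memory 3, 5 and 9. S1pr5 stood at 82.3 to 100 on the naive arrays and at 424, 271 and 2065 on the memory arrays, above every naive array even on the dim ones.

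Among the 35 lists, receptors of the NK type had the largest share of called members: 11 of 12 tested were higher, 0 were lower, and all 11 were still called without both dim arrays. The median difference over the list was 3.14. Its mean level over the naive mean was 2.46, 3.54 and 3.51 on memory 3, 5 and 9, against -0.24 to 0.28 on the naive arrays. Klrg1, an inhibitory receptor of effector-type cells, read 4.35, 4.61, 4.45, 4.69 and 4.36 on the naive arrays, all at background, and 10.12, 11.45 and 10.89 on the memory arrays. It was therefore at least 64.4-fold higher in memory cells (adjusted p = 1.55e-12), with a measured difference of 6.33 and of 6.52 on memory 9 alone. The deposited signals of Klrg1 were 86.3 to 113 on the naive arrays and 352, 255 and 1653 on memory 3, 5 and 9.

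Both activating and inhibitory members of the list rose. Klrk1, which encodes the activating receptor NKG2D, read 5.51, 5.03, 6.17, 4.92 and 4.96 on the naive and 10.49, 9.77 and 10.77 on the memory arrays, with a difference of 5.03 ± 0.28 (adjusted p = 5.69e-10). Klrc1, which encodes the inhibitory NKG2A, read 4.68, 4.83, 4.95, 4.56 and 4.41 and 8.19, 8.67 and 9.60, with a difference of 4.13 ± 0.32 (adjusted p = 4.78e-08), and was above background on 1 naive array. For both genes the groups were separate and memory 9 was the highest memory array, so that the differences without both dim arrays were 5.54 and 5.02. Klra3, of the Ly49 family, rose by 4.81 ± 0.38 (adjusted p = 5.33e-08), with values of 8.63, 10.88 and 10.29 on the memory arrays, and Klre1 by 4.42 ± 0.44 (adjusted p = 1.1e-06). Genes of the Ly49 family are near copies of each other, so a probe may read more than one of them. Klrb1c and Klrb1f rose by 4.17 and 2.15, above background on 1 and 2 naive arrays. Klra9 was at background on all naive arrays and on memory 5, and read 5.71, 6.38 and 7.87 on memory 3, 5 and 9. Its measured difference was 2.14, and 3.46 without both dim arrays. No bound is given, since the memory mean holds a value at background. Klrb1f (0.95) and Klra9 (0.93) were not called in the authors' processed table. Cd160, a receptor for HVEM, rose by 1.47, a sign that turned with arrays scaled to the same median. Klrd1 (CD94), the partner chain of NKG2A, was high in both groups, at 12.43 to 13.08 on the naive and 13.09, 13.48 and 13.66 on the memory arrays. Its difference of 0.66 ± 0.23 did not reach 2-fold (adjusted p = 0.0469).

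**Figure D2:**
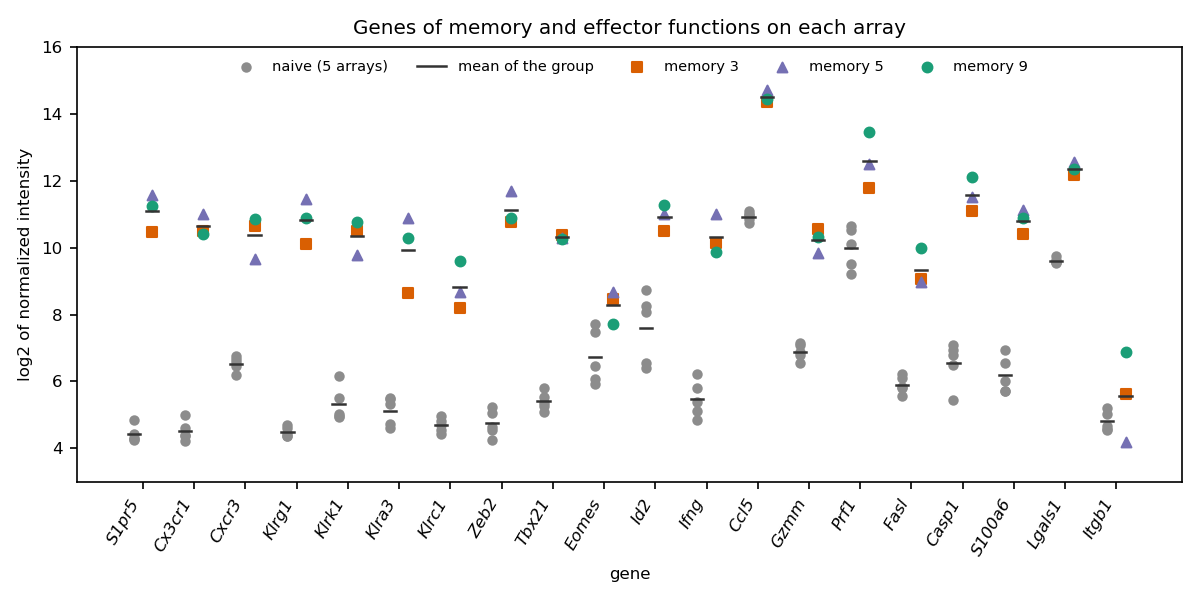
Normalized log2 intensity (y axis) of 20 genes of homing, NK-type receptors, transcription factors, effector functions and adhesion (x axis) on the 5 naive arrays (grey points) and on memory 3, 5 and 9 (coloured symbols); short lines are group means. The genes were picked from those named by rule and all but Itgb1 were called higher, so separate groups follow in part from that choice. Eomes and Itgb1 overlap between the groups, Itgb1 with 4.17 on memory 5 and 6.89 on memory 9.

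Of 21 tested genes for transcription factors of T-cell fate, 5 were higher and 5 lower, and 4 of each were still called without both dim arrays. The shares over all genes tested were 5.58% higher and 6.93% lower. Tbx21, which encodes T-bet, the master regulator of interferon-gamma production, read 5.07, 5.35, 5.26, 5.54 and 5.79 on the naive arrays and 10.38, 10.28 and 10.26 on the memory arrays. The memory arrays, the dim ones included, lay within 0.11 of each other, and the difference was 4.90 ± 0.25 (adjusted p = 2.74e-10). Zeb2, a repressor that acts with T-bet in terminal effector cells, read 5.06, 5.22, 4.54, 4.64 and 4.26, above background on 2 of the naive arrays, and 10.77, 11.68 and 10.89, with a difference of 6.37 ± 0.28 (adjusted p = 2.73e-11). Without the dim arrays the differences were 4.93 and 6.26. Id2, an inhibitor of E proteins that supports effector cells, rose by 3.33 ± 0.56 (adjusted p = 0.00034). Its naive values were spread, from 6.40 on naive 13 to 8.73 on naive 2, and all lay below the memory values of 10.49, 11.01 and 11.29. With arrays scaled to the same median Id2 was not called (1.54). Bhlhe40, a factor of cytokine-producing T cells, rose by 3.43 ± 0.55 (adjusted p = 0.000198).

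Eomes, the T-box factor linked to memory survival, was called with all arrays and not without the dim ones. It read 7.48, 6.46, 7.72, 5.91 and 6.06 on the naive arrays and 8.47, 8.67 and 7.70 on the memory arrays, so that memory 9 lay below naive 11 and the groups overlapped. The difference was 1.55 ± 0.39 (adjusted p = 0.00815), and 0.99 without both dim arrays, where it was not called, nor was it with arrays scaled to the same median (0.091). Tox and Lef1 were lower. Tox, a chromatin factor of T-cell development and exhaustion, read 10.15, 10.04, 9.93, 10.01 and 9.55 and 8.30, 4.37 and 6.59, of which memory 5 was at background. Its difference was -3.51 ± 0.53 (adjusted p = 0.00011) and -3.37 on memory 9 alone. Lef1, a Wnt pathway factor of naive and early memory cells, fell from 9.19 ± 0.46 (SD, n = 5) to 7.08 ± 0.57 (SD, n = 3). Its difference was -2.10 ± 0.33 (adjusted p = 0.000158), and -2.67 without the dim arrays. Other probes of Lef1 differed by -0.78 and -0.40. Id3, the counterpart of Id2 in long-lived memory precursors, was called lower at -1.23 ± 0.35 (adjusted p = 0.0175), with memory values of 6.01, 4.34 and 5.42 that overlapped the naive range of 5.81 to 7.27. It was not called without both dim arrays (-1.10), and its sign turned with scaling to the probes above background on all arrays. A probe under the symbol Tcf7, which encodes Tcf1, was not analysed here.

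T-bet binds T-box letters (AGGTGTGA) and Zeb2 binds E-box letters (CAGGTG), and both factors rose in memory cells. The promoters shown are of some genes that rose with them, and each of those shown holds a match. The windows run from 250 bases before to 50 after the start site, are taken from RefSeq on GRCm38.p6 and are written 5′ to 3′ on the gene's own strand, with the motif or its reverse complement in capitals. Tbx21 (chr11:97115282-97115581, minus strand) and Ifng (chr10:118440796-118441095, plus strand) each held 1 E-box, Prf1 (chr10:61297586-61297885, plus strand) held 1 E-box close to its start site, and Nkg7 (chr7:43436888-43437187, plus strand) held 1 T-box, also close to its start.
Tbx21: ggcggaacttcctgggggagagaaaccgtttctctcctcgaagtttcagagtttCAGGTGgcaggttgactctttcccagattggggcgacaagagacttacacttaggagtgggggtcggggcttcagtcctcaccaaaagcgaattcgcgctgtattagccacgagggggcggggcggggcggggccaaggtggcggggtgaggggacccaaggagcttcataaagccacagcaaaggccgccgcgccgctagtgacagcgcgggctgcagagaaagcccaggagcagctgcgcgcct
Ifng: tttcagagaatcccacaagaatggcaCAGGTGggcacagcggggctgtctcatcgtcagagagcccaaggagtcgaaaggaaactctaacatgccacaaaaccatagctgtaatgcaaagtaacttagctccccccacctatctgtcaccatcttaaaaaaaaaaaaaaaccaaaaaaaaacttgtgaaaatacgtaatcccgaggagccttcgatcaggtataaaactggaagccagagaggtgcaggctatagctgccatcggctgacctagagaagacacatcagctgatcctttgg
Prf1: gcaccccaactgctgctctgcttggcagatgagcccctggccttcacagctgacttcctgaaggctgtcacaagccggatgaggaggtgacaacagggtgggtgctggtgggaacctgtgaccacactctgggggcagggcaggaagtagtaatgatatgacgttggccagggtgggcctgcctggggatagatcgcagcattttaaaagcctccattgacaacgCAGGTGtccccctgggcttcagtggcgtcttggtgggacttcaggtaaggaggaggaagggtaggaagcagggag
Nkg7: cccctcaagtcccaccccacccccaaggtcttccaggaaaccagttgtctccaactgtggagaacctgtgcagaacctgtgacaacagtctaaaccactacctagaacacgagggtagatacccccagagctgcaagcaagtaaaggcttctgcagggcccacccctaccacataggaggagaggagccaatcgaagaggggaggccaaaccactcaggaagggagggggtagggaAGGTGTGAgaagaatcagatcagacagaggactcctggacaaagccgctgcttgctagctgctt
A promoter was matched by symbol for 8644 of the 10612 genes tested. On either strand, the T-box letters were in the windows of 11 of 470 matched genes called higher (2.34%), of 1.32% of those called lower and of 1.19% of all genes tested. The E-box letters were in 21.1% of those called higher, 22.3% of those called lower and 20.6% of all. Among 9 matched NK-type receptor genes tested, the T-box letters were in 0 and the E-box letters in 2 (22.2%). The letters of both motifs overlap, but no match shown in capitals belongs to both. A match is a description of these letters and not of binding.

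No gene for killing was called lower, where 6.93% of all genes tested were called lower and 5.58% higher. Of 16 tested cytotoxic granule and killing genes, 8 were higher and 0 lower (0 at an unadjusted p under 0.05), and all 8 were still called without both dim arrays. Prf1, which encodes the pore-forming protein perforin, read 10.65, 10.53, 10.10, 9.21 and 9.52 on the naive and 11.78, 12.50 and 13.45 on the memory arrays. It was already well above background in naive cells, memory 9 was the highest array, and the difference was 2.58 ± 0.44 (adjusted p = 0.000346), 3.45 on memory 9 alone. With arrays scaled to the same median it was 0.76 and not called (adjusted p = 0.388). Gzmm, a granzyme found in innate-like lymphocytes, read 6.78, 7.09, 6.55, 7.14 and 6.89 and 10.55, 9.83 and 10.33, with separate groups and a difference of 3.34 ± 0.18 (adjusted p = 4.45e-10). Fasl, the ligand that triggers death through Fas, rose by 3.44 ± 0.32 (adjusted p = 4.88e-07), with memory values of 9.06, 8.98 and 9.98 above the naive range of 5.56 to 6.21.

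Gzmk, a granzyme of memory cells, was at background on all 5 naive arrays and read 5.60, 7.86 and 6.53 on the memory arrays, with memory 5 the highest. The memory mean was at least 3.62-fold higher (adjusted p = 0.000102), and the measured difference of 2.22 was 2.17 without both dim arrays. Deposited signals of Gzmk were 86.64 to 113.6 on the naive arrays and 93.45, 95.14 and 164.8 on memory 3, 5 and 9. The dim arrays thus lay within the naive range before processing. In the authors' processed table Gzmk differed by 0.95 and was not called. Nkg7, a protein of cytotoxic granules, lay at 11.86 to 12.42 in naive and at 13.64, 13.53 and 13.42 in memory cells, and rose by 1.39 ± 0.22 (adjusted p = 0.0002), with a sign that turned when arrays were scaled to the same median. Stx11, which takes part in granule release, rose by 3.11 ± 0.32 (adjusted p = 1.75e-06). A probe under the symbol Gzma was not analysed here, and that of Gzmb did not pass the filter.

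Of 16 tested chemokine and cytokine genes, 8 were higher and 0 lower (0 at an unadjusted p under 0.05), and all 8 were still called without both dim arrays. In all genes tested, 5.58% were called higher and 6.93% lower. Ifng, which encodes interferon-gamma, read 5.79, 6.23, 5.12, 5.37 and 4.86 on the naive and 10.13, 11.00 and 9.86 on the memory arrays. The nearest memory and naive values were 3.63 apart, memory 5 was the highest, and the difference was 4.85 ± 0.34 (adjusted p = 1.52e-08), 4.45 on memory 9 alone. In deposited signals Ifng read 96.8 to 128 on the naive arrays and 355, 201 and 881 on memory 3, 5 and 9. Ccl5 (RANTES), a chemokine that memory CD8 T cells store, read 11.08, 10.85, 10.74, 10.98 and 10.99 and 14.36, 14.70 and 14.45, and its difference of 3.57 ± 0.30 (adjusted p = 1.15e-07) was 3.50 without both dim arrays.

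Other chemokine and tumour necrosis factor family genes were also called higher. Ccl4 (MIP-1 beta), an inflammatory chemokine, rose by 3.17 ± 0.35 (adjusted p = 3.34e-06), and Tnfsf14 (LIGHT), a ligand of HVEM, by 4.51 ± 0.19 (adjusted p = 1.67e-11). Ccl9, a chemokine of the macrophage inflammatory family, was at background on all naive arrays. It read 8.46, 9.68 and 8.12 on memory 3, 5 and 9, and the memory mean was at least 15.4-fold higher (adjusted p = 0.000362). Memory 5 was the highest, and the measured difference of 4.43 was 3.93 without both dim arrays. The bound holds for the mean and not for each array. Xcl1 (lymphotactin), which attracts cross-presenting dendritic cells, read 6.56, 5.43, 6.87, 5.94 and 5.08 on the naive and 10.16, 8.87 and 7.75 on the memory arrays. Its highest value was on memory 3 and its lowest on memory 9, so that the difference of 2.95 ± 0.43 (adjusted p = 8.79e-05) was 1.81 on memory 9 alone and was still called, but not with arrays scaled to the same median (1.37).

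Both chains of the receptor for interleukin 18, a cytokine that stimulates memory cells without antigen, rose, and both receptor chains for interleukin 6, Il6ra and Il6st, were lower. Of 25 tested memory surface and cytokine receptor genes, 9 were higher and 4 lower, and 9 and 3 were still called without both dim arrays. Il18rap, an interleukin 18 receptor chain, read 5.14, 4.84, 5.01, 4.72 and 5.04 on the naive and 9.77, 9.92 and 9.04 on the memory arrays, with a difference of 4.62 ± 0.19 (adjusted p = 1.57e-11) and 4.18 on memory 9 alone. A second, dimmer probe of Il18rap differed by 0.62 only. Il18r1, the other chain, rose by 3.07 ± 0.44 (adjusted p = 7.33e-05) from naive values of 9.47 to 9.97 to 12.35, 12.51 and 13.48. With arrays scaled to the same median Il18r1 was not called (1.26). Il10ra, the interleukin 10 receptor, rose by 3.68 ± 0.22 (adjusted p = 1.46e-09).

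Cd44, the adhesion receptor used to mark antigen-experienced T cells, read 6.84, 7.12, 6.87, 6.46 and 6.44 on the naive and 9.47, 9.76 and 8.88 on the memory arrays. Memory 9 was the lowest memory array and still 1.76 above the nearest naive one, and the difference of 2.63 ± 0.29 (adjusted p = 3.81e-06) was 2.16 without both dim arrays. Other probes of Cd44 disagreed, with differences from -0.11 to 3.33. Ly6c1, a surface protein of memory CD8 T cells, rose by 3.23 ± 0.29 (adjusted p = 2.79e-07). With arrays scaled to the same median neither Cd44 (0.95) nor Ly6c1 (1.52) was called. Slamf7, an activating receptor of the SLAM family, was at background on all naive arrays and at least 15.3-fold higher (adjusted p = 1.68e-09). Il6st (gp130), the signalling chain for interleukin 6, differed by -3.39 ± 0.36 (adjusted p = 2.53e-06), with 6.54, 4.26 and 5.42 on the memory arrays against 8.19 to 9.30, and memory 9 alone gave -3.44. Il6ra, its ligand-binding partner, differed by -2.87 ± 0.31 (adjusted p = 2.61e-06) and by -3.25 without both dim arrays.

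Some receptors that are often used to describe memory cells were not called. Il7r, the interleukin 7 receptor of naive and memory cells, read 12.38, 12.22, 12.66, 13.13 and 12.68 on the naive and 12.63, 11.98 and 13.49 on the memory arrays, with a difference of 0.09 ± 0.28 (adjusted p = 0.867). Il2rb (CD122), the shared receptor chain for interleukins 2 and 15, had a difference of 0.54 ± 0.31 (adjusted p = 0.242), and Cd27, a co-stimulatory receptor, one of 0.22 ± 0.19 (adjusted p = 0.45) that turned in sign with arrays scaled to the same median. The groups overlapped for all 3 of these genes, and none was called without both dim arrays, where the differences were 0.87, 0.79 and 0.26. Probes of Il7r disagreed, with differences from -0.82 to 0.65 on the others. A p that misses the threshold does not show equal levels.

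Genes for calcium-binding S100 proteins, annexins and galectins, which serve membrane repair, motility and the cell cortex, rose in part. Shares over all genes tested were 5.58% higher and 6.93% lower. Of 24 tested genes of the S100, annexin, galectin and cytoskeletal list, 12 were higher and 1 was lower, and 10 and 1 were still called without both dim arrays. S100a6 read 6.93, 6.54, 6.01, 5.71 and 5.72 on the naive and 10.41, 11.11 and 10.88 on the memory arrays, with a difference of 4.62 ± 0.42 (adjusted p = 3.41e-07). S100a4, a motility protein, rose by 4.20 ± 0.37 (adjusted p = 2.15e-07), Lgals1 (galectin 1) by 2.74 ± 0.22 (adjusted p = 6.41e-08) and Anxa2 by 2.74 ± 0.20 (adjusted p = 2.8e-08). Without the dim arrays the differences of these genes, in the same order, were 4.75, 4.96, 2.73 and 2.80. Lgals3 (galectin 3) and Ahnak, a large membrane scaffold with probes that disagreed, rose by 3.82 and 2.82, and Anxa1, a protein of resolving inflammation above background on 2 naive arrays, by 2.41. With arrays scaled to the same median Lgals1 (0.97), Anxa2 (0.97), Ahnak (1.16) and Lgals3 (2.09) were not called. The single member that fell was Actn1 (alpha-actinin 1), an actin cross-linker. It read 11.95, 12.35, 11.89, 11.99 and 12.04 on the naive and 9.83, 4.48 and 8.47 on the memory arrays, with memory 5 at background, so the difference of -4.45 ± 0.72 (adjusted p = 0.00022) was -3.58 on memory 9 alone.

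Of 18 tested integrin and adhesion genes, 4 were higher and 1 lower, and 2 and 1 were still called without both dim arrays. Among all genes tested, 5.58% were called higher and 6.93% lower. Itga4, the alpha chain of VLA-4, rose by 2.01 ± 0.40 (adjusted p = 0.00141), and was not called with arrays scaled to the same median (0.82). Its partner Itgb1, the beta chain, was not called until memory 5 was left out. It read 5.02, 5.20, 4.59, 4.55 and 4.66 on the naive and 5.63, 4.17 and 6.89 on the memory arrays, at background on memory 5, and was not called with all arrays (0.77 ± 0.38, adjusted p = 0.172) but was called on memory 9 alone (2.17, adjusted p = 8.27e-05). Itgb2, the beta chain of LFA-1, was called at 1.79 ± 0.41 (adjusted p = 0.00431) and neither on memory 9 alone (1.12) nor with arrays scaled to the same median (0.086). Itgae (CD103), the integrin chain that binds epithelial E-cadherin, was lower. It read 11.76, 12.21, 11.73, 12.30 and 11.52 on the naive and 10.41, 8.79 and 7.78 on the memory arrays, lowest on the bright array memory 9, and differed by -2.91 ± 0.63 (adjusted p = 0.00291) and by -4.13 without both dim arrays.

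The naive programme was lower in memory cells. Of 20 tested naive and quiescence genes, 0 were higher (1 at an unadjusted p under 0.05) and 10 lower, all 10 of them still called without both dim arrays, and the median difference was -1.56. The mean level of the list over the naive mean was -1.31, -1.90 and -1.85 on memory 3, 5 and 9, so the bright array lay within the range of the dim ones. Besides Ccr7, Actn1 and Lef1, Igfbp4, a binding protein of insulin-like growth factors and a marker of naive T cells, read 10.42, 10.06, 10.42, 10.37 and 9.65 on the naive and 5.82, 5.73 and 5.09 on the memory arrays. The nearest memory and naive values were 3.83 apart, with a difference of -4.64 ± 0.27 (adjusted p = 1.34e-09) and -5.18 on memory 9 alone. Dapl1, a gene of resting naive T cells, differed by -3.18 ± 0.49 (adjusted p = 0.000155), and Tob1, a brake on T-cell proliferation, by -1.73 ± 0.29 (adjusted p = 0.000301).

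**Figure D3:**
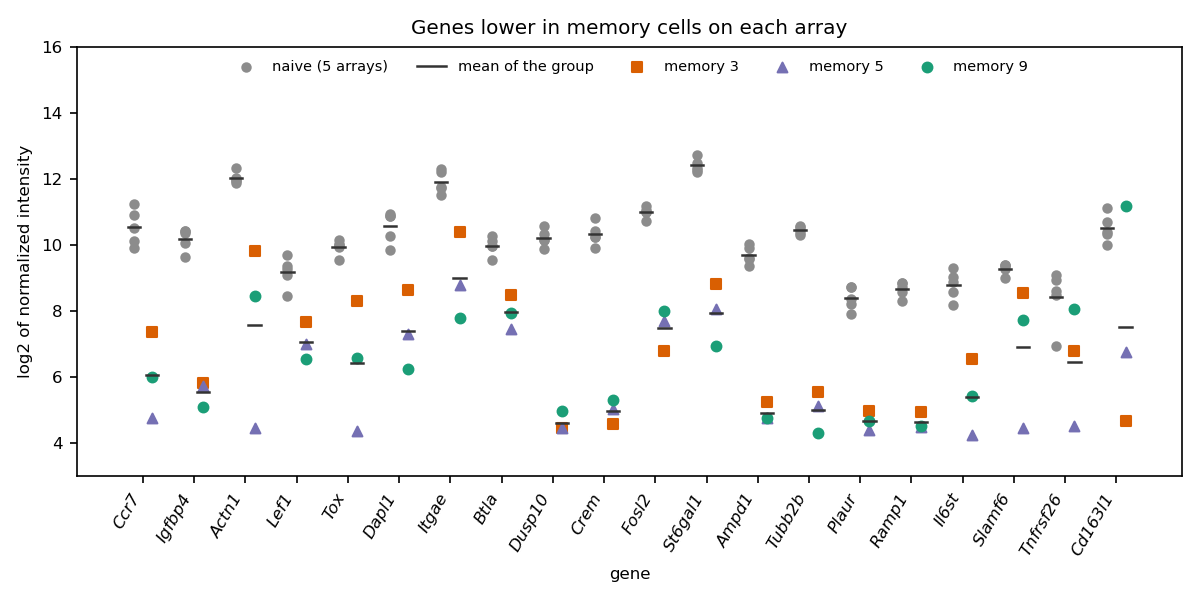
Normalized log2 intensity (y axis) of 20 genes called lower in memory cells (x axis) on the 5 naive arrays (grey points) and on memory 3, 5 and 9 (coloured symbols); short lines are group means. Dusp10, Crem, Ampd1, Plaur and Ramp1 lie low on all 3 memory arrays, while Slamf6 and Tnfrsf26 are at background on memory 5 and Cd163l1 reads 4.66 on memory 3 and 11.19 on memory 9.

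Immediate early genes, which cells switch on within minutes of a stimulus, were lower in memory cells. Of 26 tested, 1 was higher and 13 lower, and all 14 were still called without both dim arrays. The median difference was -1.72. The list's mean level was -1.24, -1.25 and -2.26 on memory 3, 5 and 9 and -0.52 to 0.32 on the naive arrays, so it was lowest on the bright memory array. Dusp10, a phosphatase of the JNK and p38 kinases, read 10.34, 9.89, 10.16, 10.58 and 10.17 on the naive and 4.45, 4.45 and 4.98 on the memory arrays. It was above background on memory 9 alone of the memory arrays, and the difference was -5.60 ± 0.20 (adjusted p = 2.6e-12), -5.34 on that array. In deposited signals it stood at 830 to 1869 on the naive arrays and at 83.6, 82.4 and 108 on the memory arrays.

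Other members of the list were lower too. Crem, a modulator of the cyclic AMP response, differed by -5.36 ± 0.34 (adjusted p = 3.75e-09), with memory values of 4.58, 5.03 and 5.32, above background on 1 array, against 9.91 to 10.83 on the naive arrays. Fosl2, of the AP-1 family, read 10.73, 11.01, 11.06, 11.20 and 11.01 on the naive and 6.81, 7.70 and 8.00 on the memory arrays and differed by -3.50 ± 0.24 (adjusted p = 1.29e-08), by -3.02 without both dim arrays. Ier3, a regulator of survival that belongs to the same list, was the exception: it read 5.91, 5.54, 6.16, 5.05 and 5.76 on the naive and 9.25, 8.77 and 10.23 on the memory arrays, highest on memory 9, and rose by 3.73 ± 0.39 (adjusted p = 1.88e-06). Dusp1, a phosphatase of stress kinases, and Ppp1r15a, a stress-induced phosphatase subunit, were chosen after their values were seen, for the promoters printed here. Dusp1 read 12.66, 12.92, 12.72, 12.28 and 11.98 on the naive and 10.91, 11.84 and 8.76 on the memory arrays, and Ppp1r15a read 11.86, 11.01, 11.23, 11.32 and 10.24 on the naive and 9.95, 9.41 and 6.14 on the memory arrays. Both were lowest on the bright array memory 9, and the groups did not overlap. The difference of Dusp1 was -2.01 ± 0.51 (adjusted p = 0.00843), -3.75 without both dim arrays and -1.14 without memory 9, where it was not called (adjusted p = 0.0502). That of Ppp1r15a was -2.63 ± 0.61 (adjusted p = 0.00448), -5.03 without both dim arrays and -1.46 without memory 9.

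The cyclic AMP response element (CRE, TGACGTCA, which reads the same on both strands) is known from promoters of immediate early genes. Of the 20 tested members of the list with a RefSeq promoter window, 2 held it (10%), Dusp1 (chr17:26508423-26508722, minus strand) and Ppp1r15a (chr7:45526219-45526518, minus strand). Among all genes tested with a window 3.46% held it, as did 4.62% of those called lower and 2.55% of those called higher. Capitals mark the element.
Dusp1: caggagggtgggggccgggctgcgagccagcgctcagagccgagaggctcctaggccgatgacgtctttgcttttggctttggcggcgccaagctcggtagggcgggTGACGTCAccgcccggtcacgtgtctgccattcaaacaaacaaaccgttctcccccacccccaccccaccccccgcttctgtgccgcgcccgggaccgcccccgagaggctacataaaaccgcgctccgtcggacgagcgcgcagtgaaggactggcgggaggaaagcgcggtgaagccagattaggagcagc
Ppp1r15a: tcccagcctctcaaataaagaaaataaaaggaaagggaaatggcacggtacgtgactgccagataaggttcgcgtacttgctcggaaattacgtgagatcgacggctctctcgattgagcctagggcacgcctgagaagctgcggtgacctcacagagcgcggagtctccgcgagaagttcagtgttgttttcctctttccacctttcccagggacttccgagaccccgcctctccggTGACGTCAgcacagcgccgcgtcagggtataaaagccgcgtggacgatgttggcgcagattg

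Co-receptors moved in both directions. Of 13 tested co-inhibitory receptor genes 2 were higher and 1 lower, where 5.58% of all genes tested were higher and 6.93% lower. Btla, an inhibitory receptor for HVEM, read 10.13, 9.97, 10.27, 9.97 and 9.55 on the naive and 8.48, 7.47 and 7.96 on the memory arrays, with a difference of -2.01 ± 0.21 (adjusted p = 1.57e-06) and -2.03 on memory 9 alone. Nt5e (CD73), which makes adenosine, rose by 2.85 ± 0.24 (adjusted p = 1.65e-07), and was not called with arrays scaled to the same median (1.13). Pdcd1 (PD-1), the receptor of chronically stimulated T cells, was above background on 2 naive arrays and on no memory array, at 4.30, 4.30 and 4.69, and was not called (-0.13 ± 0.21, adjusted p = 0.705). Of 17 co-stimulatory receptor genes, 3 were higher and 4 lower, of which only 1 and 1 were still called without both dim arrays. These were Tnfrsf25 (DR3), with a difference of 1.63 ± 0.24 (adjusted p = 9.02e-05), which was not called with arrays scaled to the same median (0.029), and Icos, with -2.06 ± 0.39 (adjusted p = 0.000983). Slamf6, a receptor of the SLAM family, rested on the dimmest array: it read 8.54, 4.47 and 7.73 on the memory arrays against 9.00 to 9.41 on the naive arrays, a difference of -2.37 ± 0.64 (adjusted p = 0.0128) that was not called on memory 9 alone (-1.57).

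**Figure D4:**
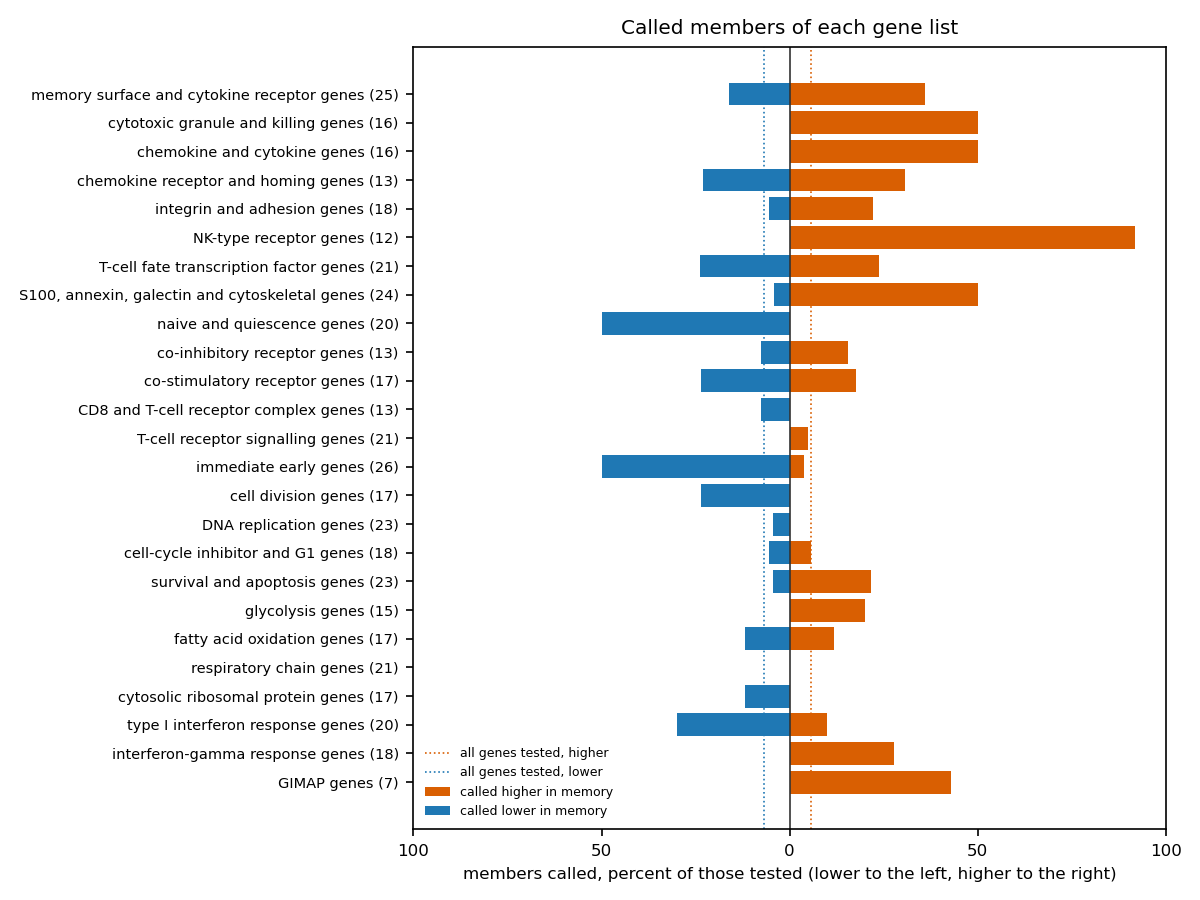
Share of the tested members of 25 gene lists (y axis, number tested in brackets) called higher in memory cells (orange, to the right) and called lower (blue, to the left), in percent (x axis). Dotted lines mark the shares among all genes tested, 5.58% higher and 6.93% lower; NK-type receptor genes reach 11 of 12 higher, and naive and immediate early genes 10 of 20 and 13 of 26 lower.

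Calls among genes of the T-cell receptor and its signalling were few, as they were among all genes tested (5.58% higher and 6.93% lower). Of 13 tested CD8 and T-cell receptor complex genes, 1 was lower and 0 higher (2 at an unadjusted p under 0.05), Trat1, an adaptor that stabilises the receptor at the surface, with a difference of -1.91 ± 0.25 (adjusted p = 2.39e-05) and -1.83 without both dim arrays. Of 21 signalling genes 1 was higher and 0 lower (4 at an unadjusted p under 0.05). That gene was Nfatc2, a calcium-regulated transcription factor, which read 5.18, 7.02 and 5.61 on the memory arrays and was not called on memory 9 alone (1.12, adjusted p = 0.0525) or with arrays scaled to the same median (0.50).

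No cell division or DNA replication gene was called higher, where 5.58% of all genes tested were called higher and 6.93% lower. Of 17 tested cell division genes 0 were higher (0 at an unadjusted p under 0.05) and 4 lower, 3 of them without both dim arrays. Kif23, a motor protein of cytokinesis, read 9.89, 10.23, 9.76, 9.32 and 9.80 on the naive and 7.70, 8.15 and 5.82 on the memory arrays, lowest on memory 9, and differed by -2.57 ± 0.41 (adjusted p = 0.000191). Its probes disagreed: another, above background on all 8 arrays, differed by 0.95, and the mean of all kept probes gave -0.92, which was not called. The other genes called lower were Top2a (-1.84), Birc5 (-1.48) and Nusap1 (-1.32). Top2a and Birc5 were not called without memory 5 (-1.47 and -1.06) or without memory 9 (-1.58 and -1.31). Nusap1 was not called without memory 9 (-0.60). None of these was called in the authors' processed table. Of 23 DNA replication genes 0 were higher (1 at an unadjusted p under 0.05) and 1 was lower, Cdc6, a loader of the replicative helicase (-1.42 ± 0.25, adjusted p = 0.000482), which was not called without both dim arrays (-1.19) and turned in sign with scaling to the probes above background on all arrays. Of 18 cell-cycle inhibitor and G1 genes 1 was higher and 1 lower. Ccnd3, a cyclin of G1, rose by 1.77 ± 0.23 (adjusted p = 2.75e-05), with a sign that turned under scaling to the same median.

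Among 23 survival and apoptosis genes, 5 were higher and 1 lower, where 5.58% of all genes tested were higher and 6.93% lower. The 2 largest were inflammatory caspases. Casp1, which cleaves interleukins 1 beta and 18, read 6.94, 6.78, 7.10, 6.50 and 5.45 on the naive and 11.09, 11.51 and 12.10 on the memory arrays and rose by 5.01 ± 0.31 (adjusted p = 2.88e-09), by 5.58 on memory 9 alone. Casp4 rose by 2.69 ± 0.26 (adjusted p = 9.29e-07), and Bcl2a1b and Bcl2a1d, near copies of the survival gene A1, by 1.37 and 1.35, both with a sign that turned under scaling to the same median. Bcl2, the survival gene downstream of interleukin 7, read 9.54, 9.52, 9.74, 9.16 and 9.88 on the naive and 9.72, 9.63 and 11.06 on the memory arrays. It was not called with all arrays (0.57 ± 0.32, adjusted p = 0.225) and was called on memory 9 alone (1.49, adjusted p = 0.0189), while its other probes differed by -0.64 to 0.98 with all arrays.

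Part of what was called among metabolic genes rested on the dim arrays. The level of the glycolysis list was 0.97 on memory 3, 0.59 on memory 5 and 0.0010 on memory 9, against -0.35 to 0.25 on the naive arrays. Of 15 glycolysis genes 3 were higher and 0 lower (1 at an unadjusted p under 0.05), and 1 was still called without the dim arrays: Slc2a3, a glucose transporter, with 1.64 ± 0.17 (adjusted p = 1.5e-06), which turned in sign under scaling to the same median. The enzymes Aldoc and Tpi1 were called at 1.52 and 1.16, but read 4.58 and 9.53 on memory 9, within or next to the naive ranges of 4.35 to 5.26 and 9.02 to 9.52. With arrays scaled to the same median Aldoc was not called (0.35) and Tpi1 turned in sign. Of 17 fatty acid oxidation genes 2 were higher and 2 lower, and 1 and 2 were still called. Cpt2, which brings fatty acids into mitochondria, rose by 1.39 ± 0.26 (adjusted p = 0.000756; the sign turned under scaling to the same median), and Lipa, the lysosomal acid lipase, differed by -2.03 ± 0.50 (adjusted p = 0.00653). Lipa read 9.47, 6.78 and 8.23 on the memory arrays, lowest on memory 5, and was not called without that array (-1.34, adjusted p = 0.0588). None of 21 respiratory chain genes was called by limma (0 at an unadjusted p under 0.05). Of 17 ribosomal protein genes 0 were higher (2 at an unadjusted p under 0.05) and 2 were lower. These were Rplp0 (-1.15 ± 0.20, adjusted p = 0.00036) and Rpl22 (-1.01 ± 0.21, adjusted p = 0.00172). Rpl22 was not called without memory 5 (-0.83). Neither Rplp0 nor Rpl22 was called without memory 9 (-0.99 and -0.89) or in the authors' processed table (-0.93 and -0.90). Over all genes tested, 5.58% were called higher and 6.93% lower.

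Interferon-induced genes were called in both directions, where 5.58% of all genes tested were called higher and 6.93% lower. Of 20 type I interferon response genes 2 were higher and 6 lower, of which 2 and 2 were still called without both dim arrays. Oas2, which makes a second messenger against viral RNA, differed by -2.46 ± 0.39 (adjusted p = 0.0002) and was above background on 1 memory array, and Rsad2 (viperin) by -2.30 ± 0.50 (adjusted p = 0.00278), the latter not called on memory 9 alone (-1.66, adjusted p = 0.0792). With scaling to the probes above background on all arrays neither Oas2 (-0.93) nor Rsad2 (-1.03) was called. Naive 13 had the lowest level of the type I interferon list among the naive arrays, at -0.997 against -0.73 to -0.15 on the memory arrays. Of 18 interferon-gamma response genes 5 were higher and 0 lower (0 at an unadjusted p under 0.05), and 4 were still called without both dim arrays. Gbp3, a guanylate-binding protein of host defence, read 7.76, 8.41, 8.56, 8.35 and 7.97 and 9.98, 10.11 and 10.23 and rose by 1.90 ± 0.20 (adjusted p = 2.61e-06), and was not called with arrays scaled to the same median (0.15). Of 7 GIMAP genes, GTPases of lymphocyte survival, 3 were higher and 0 lower (1 at an unadjusted p under 0.05), and 2 were still called. Gimap5 rose by 1.67 ± 0.20 (adjusted p = 9.75e-06), although a second probe of Gimap5 differed by -0.68 and the sign turned under scaling to the same median.

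Outside the lists, the rule for the largest differences named further genes. Fcgr2b, the inhibitory Fc receptor, read 4.44, 5.19, 4.67, 4.37 and 4.25 on the naive arrays, above background on 1 of them, and 10.38, 11.26 and 10.91 on the memory arrays, with a difference of 6.27 ± 0.31 (adjusted p = 1.85e-10) and 6.45 on memory 9 alone. Smpdl3b, a membrane phosphodiesterase, rose by 5.56 ± 0.30 (adjusted p = 4.65e-10). Nhsl2, and the calcium sensor gene Ncald, were at background on all naive arrays on the probe that stood for each and at least 18.3-fold and 15.7-fold higher there. A second probe of Nhsl2 was above background on 1 naive array and differed by 3.37. On the first probes both genes had all 3 memory values above 8.5, the dim arrays included.

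Among the genes that fell, St6gal1, which adds sialic acid to surface glycans, read 12.21, 12.27, 12.35, 12.50 and 12.74 on the naive and 8.83, 8.07 and 6.95 on the memory arrays, above background on all 8. Its difference was -4.46 ± 0.29 (adjusted p = 5.65e-09), and -5.48 on memory 9 alone. Tubb2b, a beta-tubulin, differed by -5.46 ± 0.27 (adjusted p = 2.42e-10), Ampd1, an AMP deaminase, by -4.78 ± 0.26 (adjusted p = 4.45e-10), Atp1b1, a sodium pump subunit, by -4.98 ± 0.28 (adjusted p = 7.12e-10) and Acsl3, a fatty acid activating enzyme, by -3.88 ± 0.25 (adjusted p = 5.05e-09). On memory 9 alone these differences were -6.28, -5.06, -4.90 and -4.26. Tubb2b, Ampd1 and Acsl3 were each above background on 1 memory array only, so their differences are against values mostly at background, as is that of the pseudogene Bambi-ps1 (-4.08). Pdlim4, Ramp1, Plaur, Ramp3 and Usp2 were above background on all 5 naive arrays and on no memory array, the bright one included, on the probe that stood for each. A second probe of Ramp3 was above background on 1 memory array and differed by -2.12. Pdlim4, an actin-binding adaptor, was at least 15.9-fold lower (adjusted p = 9.78e-07), Ramp1 and Ramp3, partner proteins of the calcitonin receptor family, at least 9.71-fold and 6.49-fold, Plaur, the urokinase receptor, at least 8.03-fold and Usp2, a deubiquitinase, at least 5.66-fold. Nme7, a centrosomal nucleoside kinase, differed by -5.17 on its brightest probe and by 2.28 on another, so its probes disagree.

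A few calls rested on the dim arrays against the bright one. Igfbp7, a secreted protein of endothelium and stroma, was called higher at 2.72 ± 0.72 (adjusted p = 0.011), but read 10.10, 7.51 and 4.57 on the memory arrays against 4.45 to 5.11 on the naive arrays, so the bright array lay within the naive range. It was not called with arrays scaled to the same median (1.31). Cd163l1, a scavenger receptor known from gamma-delta T cells, was called lower at -2.98 ± 0.97 (adjusted p = 0.0351), yet read 4.66, 6.75 and 11.19, above every naive array (10.02 to 11.12) on memory 9. Bst2 (tetherin) was called at -1.32 and differed by 0.14 on memory 9 alone, its sign also turned with scaling to the probes above background on all arrays, and it was not called with arrays scaled to the same median (-1.22). Tnfrsf26, a decoy death receptor, read 6.79, 4.53 and 8.05 and lost its call without either dim array (-2.16 without memory 3 and -1.01 without memory 5). Of the 127 genes named by rule, 120 were called; 99 of these were called without each single array of the 8, and 100 without both dim arrays together.

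Markers of other cells bear on some of these results. Cd8b1, Cd3d, Cd3e, Cd3g and Thy1 were above background on all 8 arrays. The probes of Cd8a, the other chain of CD8, were above background on 1 memory array and on 0 naive arrays and did not pass the filter. The list of NK-cell markers had 4 of 7 tested members called higher, all Klr genes: Klra4, Klra9, Klrb1c and Klrb1f. Ncr1, the defining receptor of NK cells, was above background on no memory or naive array, and the signalling adaptors Tyrobp and Fcer1g differed by -0.42 and -0.60. The level of the list was 1.66, 1.22 and 1.004 on memory 5, 9 and 3 and -0.33 to 0.43 on the naive arrays. Of 15 macrophage and monocyte markers 0 were called (1 lower at an unadjusted p under 0.05). Their mean level ran from -0.83 to 1.14 on the naive arrays, highest on naive 1 and naive 11, and from -1.04 to -0.39 on the memory arrays, where C1qa, C1qb, C1qc, Cd14 and Adgre1 were above background on 0 arrays. Of 6 neutrophil markers 0 were called (1 lower at an unadjusted p under 0.05), with list levels of -1.26 to 0.33 on the memory and -1.30 to 1.06 on the naive arrays. Among 14 endothelial and stromal markers Igfbp7 alone was called, and the list's level was 1.06 on memory 3, 0.12 on memory 5 and -0.23 on memory 9, against -0.19 to 0.15 on the naive arrays. Of 4 B-cell markers 1 was called higher, Fcrla, at 1.48 ± 0.41 (adjusted p = 0.0146; not called with arrays scaled to the same median, 0.40), and the list's level was 1.50 on memory 5, 0.34 on memory 3, 0.04 on memory 9 and -0.24 to 0.26 on the naive arrays. Pax5, the defining factor of B cells, was above background on 0 of the 8 arrays, and Cd74 and Cd79b were on all 8. Among 6 erythroid markers 1 was lower, Alas2 (-1.24 ± 0.38, adjusted p = 0.0271), which turned in sign with scaling to the probes above background on all arrays, with list levels of -1.28 to 0.02 on the memory arrays and -1.28 to 1.42 on the naive arrays. Of 8 dendritic-cell markers Bst2 alone was called and of 4 gamma-delta and invariant T-cell markers Cd163l1 alone, while 0 of 3 platelet (0 at an unadjusted p under 0.05) and 0 of 5 CD4 and regulatory T-cell markers (1 higher and 2 lower at an unadjusted p under 0.05) were. The part of these cells in the results was not tested, and in such bulk samples fewer cells of a type and less RNA per cell cannot be told apart.

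**Figure D5:**
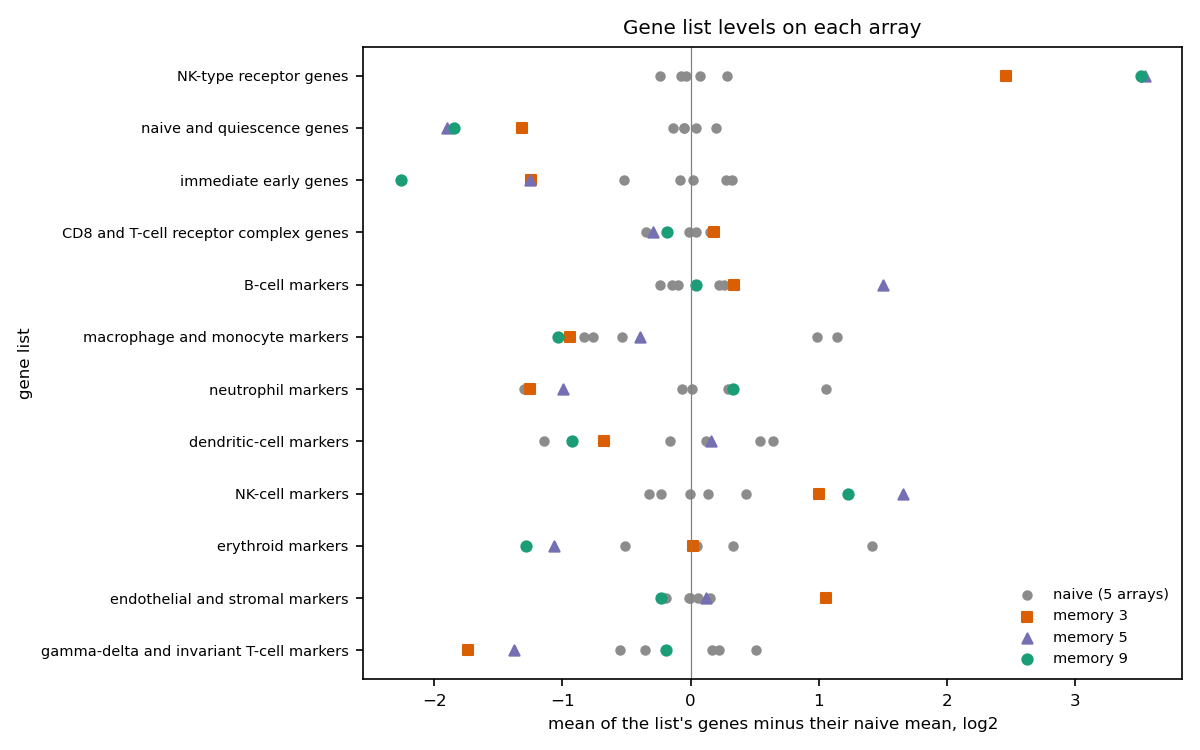
Mean level of the genes of 12 lists (y axis) on each array, as the mean log2 difference from the genes' naive means (x axis), for the 5 naive arrays (grey points) and memory 3, 5 and 9 (coloured symbols). NK-type receptor genes stand at 2.46 or more on all memory arrays, the endothelial and stromal list is high on memory 3 alone (1.06) and the B-cell list on memory 5 alone (1.50).

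The same 3 memory arrays were also set against Teff, CD8 T cells activated by dendritic cells, so the comparisons share them. Of the 10612 genes, 1128 were higher in memory cells than in Teff (10.6%) and 1612 lower (15.2%), and without both dim arrays 1259 and 1399. Ccl5 averaged 7.14 in Teff, 10.93 in naive and 14.50 in memory cells, so memory exceeded Teff by 7.37 (adjusted p = 5.81e-12). Gzmm (5.54, adjusted p = 4.67e-13) and Ly6c1 (6.18, adjusted p = 4.09e-11) were also higher in memory cells than in Teff. S1pr5, Klrg1 and Cx3cr1 exceeded Teff by 6.62, 6.43 and 6.27, with differences from naive cells of 6.68, 6.33 and 6.13, and Tbx21 by 3.54 (adjusted p = 6.85e-09). For Lgals1, Slamf7 and Cd44 the memory and Teff means were close, with differences of -0.09, -0.10 and 0.31 that were not called. Xcl1 and Stx11 were lower in memory cells than in Teff, with differences of -1.41 (adjusted p = 0.0138) and -1.89 (adjusted p = 0.000142). Ccr7 was lower than in Teff, with a difference of -3.21 (adjusted p = 1.35e-05), as was the enzyme Aldoc, with -5.56 (adjusted p = 9.64e-09).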

How the data were processed

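RNA of 17 samples was hybridised to Illumina mouse arrays with 45281 probes. The authors deposited linear intensities, not normalized per the file headers and, from the values, without background subtraction. The authors' processed table, also deposited as linear intensities, held quantile-normalized values of the same signals, and was an alternative only. The scanner and its software are not stated in the labels or headers. Members and gene lists were chosen with earlier results of these data known.

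The mode of an array's signals was taken as its background and the root mean square below the mode as the SD. Signals were corrected by normexp with an offset of 16, quantile normalized over 17 arrays and put on a log2 scale, which understates differences near background. A probe over the mode by 2.326 SD (p of 0.01) was above background, and 19985 probes that passed this on 3 or more arrays entered the fit. Symbols came from the platform table (34885 probes with 1 symbol, 18 with several, 10378 with none). The brightest probe stood for each of 10612 genes, 4143 of which had several. limma 3.58.1 in R 4.3.3 fitted 17 arrays with 1 coefficient per group. For a gene above background on no array of the dimmer group, the fold is a bound against the higher of the gene's signal and the lowest signal above background. The bound is on the fold between group means, so single arrays can lie below it. The number of arrays limits the precision. The scripts were tested on simulated data.

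Named were, in each direction, the 12 called genes with the largest difference and the 5 with the largest bound, up to 4 called members of each of 35 lists, and 47 T-cell genes, of which 41 were tested. Y-linked genes, Xist and clone names were left out of the first 2 groups. Alternatives covered leaving out arrays, normalization, background, filters, weights and covariates.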

Additional observations from a re-analysis of the deposited data

Results flagged for a closer look

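In 7 of the 127 named genes 1 of the 5 naive arrays stood apart from the other 4 by Dixon's test, which chance does in about 1 group of 20. Bambi-ps1 read 8.57 on naive 2, where the nearest other naive array read 9.23. Igfbp7 read 5.11 on naive 11, against 4.63 on the nearest. Klra4 read 5.67 on naive 2, against 4.61, and Klrb1c read 5.52 on naive 1, against 4.50 on the nearest. Lipa read 9.60 on naive 12, against 10.22. Tnfrsf26 read 6.95 on naive 13, against 8.50, and Trat1 read 8.50 on the same array, against 8.90. The memory group of 3 arrays is too small for this test.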

How the results depend on the processing

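Over 25 alternatives the counts of genes called higher and lower, 592 and 735 (44.6% of the calls higher), moved most with how the arrays were scaled. With each array scaled to the same median 83 were higher and 3602 lower (2.25% higher, median gene -0.80). With scaling to the median of probes above background on all arrays, chosen after seeing the data, 3850 were higher and 337 lower (92.0% higher, median gene 0.70). With only probes above background on all 8 arrays, also chosen later, 420 were higher and 229 lower of 5118 genes (64.7% higher). Without background correction, and in the authors' table, 303 were higher and 292 lower, with an offset of 50 397 and 442, and with no minimum difference 1046 and 1234. Without both dim arrays 608 were higher and 491 lower (55.3% higher), of which 386 and 372 were among those called with all arrays. Leaving out single arrays gave 550 to 764 higher and 533 to 987 lower. Against Teff, 1128 higher and 1612 lower became 103 and 5075 with equal medians, 4296 and 923 with the other scaling, 659 and 864 without background correction and in the authors' table, 1879 and 2462 with no minimum difference, and 590 lower with the probes above background on all 8 arrays.

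Some named genes turned in sign. Without both dim arrays Aldoc became -0.13, Bst2 0.14, Cd163l1 0.68 and Igfbp7 -0.11. With equal medians, relative to a median gene at -0.80, Bcl2a1b became -0.30, Bcl2a1d -0.40, Ccnd3 -0.041, Cd160 -0.29, Cd27 -1.56, Cpt2 -0.18, Etfb -0.44, Gimap5 -0.021, Gimap7 -0.077, Gimap8 -0.54, Nkg7 -0.29, Nlrc5 -0.38, Psmb9 -0.61, Slc2a3 -0.20 and Tpi1 -0.64. With equal medians 26 further named genes kept their direction and lost their call, Ahnak, Aldoc, Anxa2, Bst2, Cd44, Cxcr6, Eomes, Fcrla, Gbp3, Gbp7, Id2, Igfbp7, Il18r1, Itga1, Itga4, Itgb2, Klra4, Lgals1, Lgals3, Ly6c1, Nfatc2, Nt5e, Prf1, Tnfrsf25, Usp18 and Xcl1. With the other scaling Alas2 became 0.081, Bst2 0.29, Cdc6 0.21, Id3 0.15 and Pdcd1 1.38. Under it 11 further named genes kept their direction and lost their call, Birc5, Gimap8, Hadha, Nusap1, Oas2, Oasl1, Psmb9, Rsad2, Tnfrsf26, Top2a and Tpi1. With probes above background on all 8 arrays another probe of Nme7 gave 0.43. In the authors' table, and without background correction, 19 named genes kept their direction and lost their call. These were Alas2, Aldoc, Birc5, Bst2, Cdc6, Fcrla, Gzmk, Hadha, Id3, Itga1, Klra9, Klrb1f, Nfatc2, Nusap1, Oasl1, Rpl22, Rplp0, Tnfrsf26 and Top2a. The cause was not tested. No paired analysis was possible because the groups share no sample numbers. A gene of modest level cannot be told from background on memory 5, and a faint signal there can read higher than on the other arrays.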
